A study of Mus musculus with 16 samples.

Results

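Mouse mammary organoids carrying a mutation in PIK3CA alone were compared with WT organoids, gene by gene, by RNA sequencing. Organoids are clusters of cells grown in culture from tissue. The samples were chosen by the genotype in their labels, which gave 4 PIK3CA mutant and 3 WT samples, 7 of the 16 samples of the study. The other 9 samples, 4 with a HER2 mutation alone and 5 double mutants with both mutations, are mammary organoids too, and they enter below where they bear on the comparison. The title of the study names the mutations as PIK3CAH1047R and HER2V777L. The labels give normal breast as the tissue source of the WT samples and tumor breast as that of all mutant samples, so the mutation and the tissue source cannot be told apart in any comparison with WT. All groups grew in the same medium, advanced DMEM/F12 with B27, N-acetyl-cysteine, murine EGF and medium conditioned with Rspo1 and Noggin. The labels do not give the promoter or cell type that drives the mutations, the age or strain of the mice, or whether samples of one genotype came from separate mice. The p-values below therefore measure only the spread between these samples, which may be technical.

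PIK3CA encodes the catalytic subunit p110-alpha of phosphoinositide 3-kinase (PI3K), which makes the membrane lipid PIP3 when growth factor receptors such as the EGF receptor and HER2 are active. PIP3 recruits the kinase AKT, which drives glucose use and growth and keeps the FOXO transcription factors out of the nucleus. H1047R lies in the kinase domain and is among the most frequent PIK3CA mutations of human breast cancer, where it raises the activity of the enzyme.

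Levels are given as CPM, read counts scaled to a common library size, and differences as log2 fold changes of PIK3CA mutant over WT with their standard error (SE). Total counts were 48010713 to 57800959 in WT and 47639790 to 64168308 in PIK3CA mutant samples, so 3 counts corresponded to 0.0468 to 0.0630 CPM. Each adjusted p is from edgeR's quasi-likelihood test with Benjamini-Hochberg adjustment over all tested genes, and a gene was called when it was under 0.05. In the first principal component of the 16 samples, which held 27.7% of the variance, the WT samples lay at -144 to -98.0 and the PIK3CA mutant samples at 0.730 to 29.0.

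The mutated gene was measured first. Pik3ca RNA (GRCm38 chr3:32397671-32468486 (+)) stood at 85.7, 75.9 and 82.3 CPM in WT replicates 1 to 3 and at 91.6, 106, 96.1 and 111 CPM in PIK3CA mutant replicates 1 to 4. All mutant samples lay above all WT samples, but the difference of 0.31 (SE 0.11, adjusted p = 0.123) did not pass the threshold in the fit of all 16 samples. It passed in DESeq2 (adjusted p = 0.0279) and when the 7 samples were fitted alone (0.0423). The level says nothing of the allele, since gene counts do not separate mutant from normal transcripts. Erbb2, the gene of the HER2 receptor, held 145 to 171 CPM in WT and 149 to 188 CPM in PIK3CA mutant organoids, against 2696 to 4632 CPM in the HER2 mutants. The 7 libraries therefore carried no raised Erbb2 of the kind seen in the HER2 mutants.

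Of 24252 genes tested, 362 (1.49%) were higher and 734 (3.03%) lower in PIK3CA mutant than in WT organoids, 4.52% in all. The median log2 fold change over all tested genes was -0.03. Genes whose 4 mutant samples all lay above the 3 WT samples made up 13.8% of those tested, and genes with all 4 below made up 15.7%. The counts of gene lists below are to be read beside these shares of all genes. Protein-coding genes were 85.91% of the higher and 89.37% of the lower genes. The count was larger when the 7 samples were fitted alone, where 1919 genes (7.91%) were higher and 2195 (9.05%) lower, and the higher genes made up 46.6% of calls in place of 33.0%; the cause was not tested. The count also depended on single libraries: 407 genes were called without WT replicate 3, against 659 and 1029 without WT replicates 1 and 2 and 684, 656, 773 and 768 without mutant replicates 1 to 4. DESeq2 called 756 genes (3.12%) higher and 1113 (4.59%) lower. Below, a fit that left out a sample is a fit of the 16 samples with it removed, unless the 7 alone are named. A called gene whose levels in both genotypes or change from WT are given below kept its call in each of the 7 such fits for this comparison, unless the fits that lost it are given. This does not cover genes named only as list members or for samples without reads. C1qa, Itgam and Cd68, named in that way, were called in 3, 3 and 2 of the 7 fits. With 1 sample left out of the 16, 61 to 106 of the 131 named calls were kept. With 1 left out of the 7 fitted alone, where 2001 to 4733 of all genes were called, 117 to 130 were kept.

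**Figure D1:**
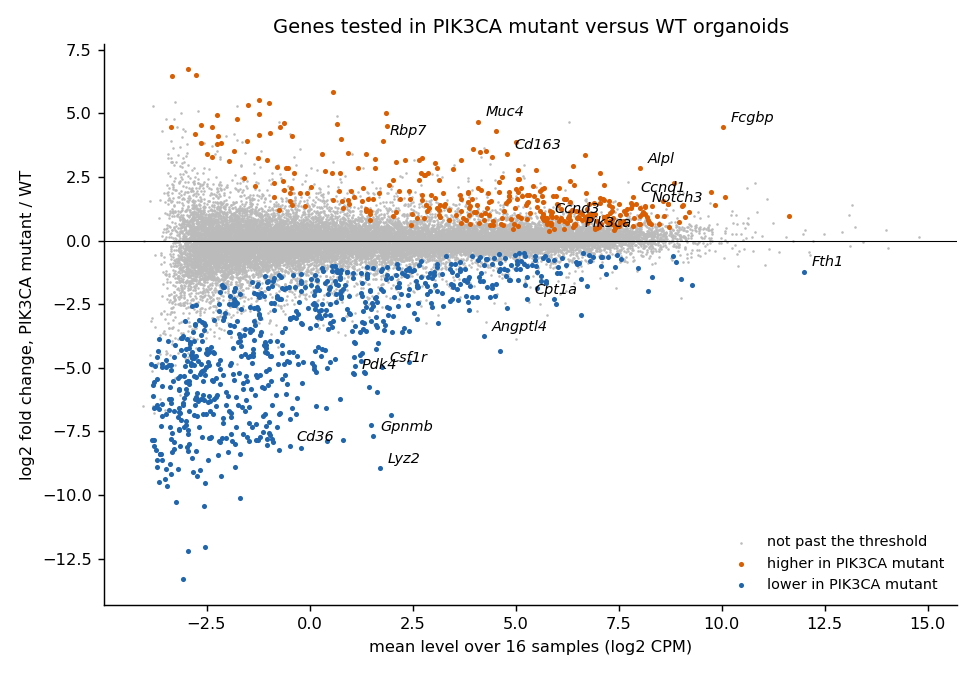
Each point is 1 of the 24252 tested genes, with its mean level over 16 samples in log2 CPM on the x axis and its log2 fold change of PIK3CA mutant over WT organoids on the y axis; coloured points passed an adjusted p of 0.05. The lower genes (734) reach larger fold changes than the higher genes (362), and some of the genes described here are labelled.

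Genes of macrophages were lower in the mutant organoids. Of 22 macrophage and myeloid markers tested, 18 fell and 1 rose (86.4%, against 4.52% of all genes), with a median log2 fold change of -7.20. Csf1r, the receptor for the macrophage growth factor CSF1, held 40.8, 12.5 and 79.8 CPM in the WT and 1.54, 1.38, 1.17 and 1.54 CPM in the PIK3CA mutant replicates, a change of -4.97 (SE 0.63, adjusted p = 0.000802); the gene overlaps Hmgxb3. C1qb, a chain of complement C1q made by tissue macrophages, held 75, 16.9 and 159 CPM in WT and 0.0477, 0.145, 0.753 and 0.214 CPM in the mutants, a change of -8.21 (SE 1.59, adjusted p = 0.00646). WT replicate 3 was highest and WT replicate 2 lowest among the WT samples for both genes, and the genotypes did not overlap. Ptprc, the pan-leukocyte surface phosphatase CD45, fell from 8.7 to 43.2 to 0.0413 to 0.155 CPM, and so did Spi1, the transcription factor PU.1 of myeloid cells, from 10.1 to 36.3 to 0.0795 to 0.25 CPM. No marker of the list was at 0 in all 4 mutant samples, but C1qa was at 0 in replicate 1 and Itgam and Marco in replicate 2. The summed level of the list was 2828, 1167 and 5492 CPM in the WT and 272, 240, 341 and 282 CPM in the mutant replicates. The median marker of the list held 27.7, 12 and 65.5 CPM in the WT and 0.151, 0.0826, 0.697 and 0.277 CPM in the mutant replicates, a wider gap than that between the sums. In bulk RNA, fewer cells of a type and less RNA per cell cannot be told apart.

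Cd163, a scavenger receptor for haemoglobin known from macrophages, went the other way. It rose from 3.57, 7.62 and 4.8 CPM in the WT replicates to 65.2, 51.8, 60.1 and 47.8 CPM in the mutant replicates (GRCm38 chr6:124304656-124330527 (+)). The lowest mutant sample lay above the highest WT sample, a change of 3.40 (SE 0.25, adjusted p = 8.41e-06). No other marker of the list rose.

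Markers of other cells of the tissue were also measured. The 16 fibroblast markers summed to 1952 to 3508 CPM in WT and 167 to 612 CPM in mutant organoids and had a median log2 fold change of -2.17. Only Pdgfrb, the PDGF receptor of fibroblasts and pericytes, was called (6.25% of the list, against 4.52% of all genes). Pdgfrb held 26.7, 40.7 and 129.8 CPM in WT and 4.01, 2.95, 4.07 and 13.5 CPM in the mutants, a change of -3.42 (SE 0.82, adjusted p = 0.0253); WT replicate 3 stood far above the other WT samples, and without it the adjusted p was 0.203. Leaving out mutant replicates 1, 2 or 3 gave 0.0852, 0.0897 and 0.0795. Col1a1, the main chain of type I collagen, spanned 133 to 999 CPM in WT and 9.98 to 250.4 CPM in the mutants (adjusted p = 0.153), so its groups overlapped. Endothelial markers summed to 9.02 to 35.5 CPM in WT and 1.98 to 3.95 CPM in the mutants, adipocyte markers to 64.9 to 217 and 15.8 to 33.3 CPM, and lymphocyte markers to 1.32 to 2.57 and 0.398 to 0.930 CPM. Most of the adipocyte sum was Lpl, at a mean of 114 CPM in WT and 21.6 CPM in the mutants. The median adipocyte marker held 0.262 to 0.69 CPM in WT and 0.0557 to 0.161 CPM in the mutants. Of the 14 lymphocyte markers, 4 had enough reads to be tested. Nerve and Schwann cell markers, most of whose sum was Erbb3, overlapped at 325 to 408 CPM in WT and 371 to 404 CPM in the mutants, with a median log2 fold change of -0.12 and no call. Endothelial Vwf, von Willebrand factor, was called at -4.20 (SE 0.66, adjusted p = 0.00161).

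The epithelium that defines the organoids was present in both groups. Calls made up 5.56% to 7.69% of the tested genes of each epithelial, basal or luminal list below, against 4.52% of all genes. All 14 epithelial markers had a positive fold change, with sums of 2858 to 3181 CPM in WT and 4236 to 5048 CPM in mutant samples, and 1 of them was called: Ehf, an epithelial ETS transcription factor, at 227, 199 and 197 CPM in WT and 442, 396, 426 and 326 CPM in the mutants. Its change was 0.94 (SE 0.21, adjusted p = 0.0185), and the adjusted p was 0.0502, 0.0633 and 0.110 without WT replicates 1, 2 and 3 and 0.0569 without mutant replicate 1. Of 17 basal and myoepithelial markers 1 fell, Myh11, the heavy chain of smooth muscle myosin (log2 fold change -1.32, SE 0.32, adjusted p = 0.0274); its call was lost in 5 of the 7 fits, with an adjusted p of up to 0.134. Krt14 and Krt5, keratins of basal cells, overlapped between genotypes, with 122 to 267 and 93.9 to 375 CPM for Krt14. Of 13 hormone-sensing luminal markers 1 fell, Esr1, the estrogen receptor, at 31.9, 44 and 29.6 CPM in WT and 18.7, 19, 19.8 and 16.1 CPM in the mutants. The Esr1 change was -0.93 (SE 0.24, adjusted p = 0.0349). Its call was lost in all 7 fits that left a sample out of the 16, with an adjusted p of 0.0674 to 0.146. It was kept in all 7 fits that left a sample out of the 7 fitted alone. Of 18 luminal progenitor and alveolar markers 1 rose, the collagen-binding integrin Itga2 (log2 fold change 1.76, SE 0.36, adjusted p = 0.0102), with an adjusted p of 0.0545 and 0.0781 without WT replicates 1 and 3.

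**Figure D2:**
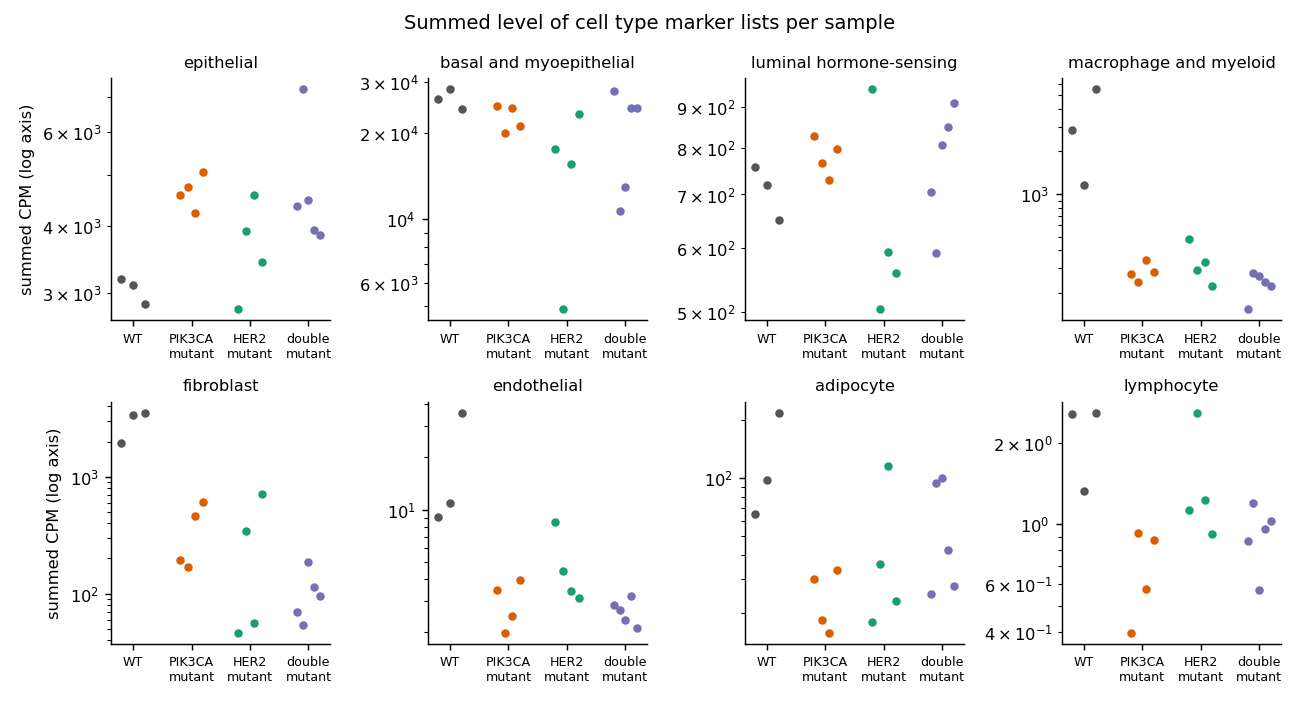
Summed CPM (log axis) of 8 fixed marker lists, 1 panel a list, with 1 point per sample for WT, PIK3CA mutant, HER2 mutant and double mutant organoids. The macrophage sums of the 3 WT samples (1167 to 5492) stand above those of the 4 PIK3CA mutant samples (240 to 341), while the epithelial sums of the mutants (4236 to 5048) stand above those of WT (2858 to 3181).

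Of 35 core PI3K, AKT and mTOR genes tested, none rose and 3 fell (8.57%, against 4.52% of all genes), and the median log2 fold change of the list was 0.02. The 3 were Pik3cd, the p110-delta catalytic subunit, Pik3r5, the regulatory subunit of PI3K-gamma, and Inpp5d, the PIP3 phosphatase SHIP1, all known for their place in leukocytes. Pik3cd held 11.3, 9.59 and 26 CPM in WT and 2.37, 1.49, 1.9 and 2.11 CPM in mutant organoids, a change of -2.99 (SE 0.46, adjusted p = 0.00157). Inpp5d held 15.8, 8.83 and 40.2 CPM in WT and 0.159, 0.124, 0.288 and 0.0893 CPM in the mutants, a change of -7.03 (SE 1.06, adjusted p = 0.00142), and for both genes WT replicate 3 was highest, as it was for the macrophage sum; the part of that sum in these changes was not tested. Akt1 and Pik3r1, the p85-alpha subunit that binds p110-alpha, had log2 fold changes of -0.22 and -0.17, neither of them called. When the 7 samples were fitted alone, 6 of the 35 were higher and 8 lower, where 7.91% and 9.05% of all genes were.

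FOXO factors switch on genes of fasting and of insulin receptor feedback when AKT is quiet. Of 29 such genes tested, 2 rose and 2 fell (13.8%, against 4.52% of all genes). When the 7 samples were fitted alone, 12 were higher and 3 lower, where 7.91% and 9.05% of all genes were. Insr and Irs2, the insulin receptor and its adaptor, had log2 fold changes of 0.22 (adjusted p = 0.334) and 0.24 (adjusted p = 0.747). Pdk4, the kinase that shuts pyruvate out of the mitochondrial citric acid cycle, fell from 14.7, 56.1 and 27.9 CPM in the WT to 0.906, 0.351, 1.57 and 0.607 CPM in the mutant replicates, a change of -5.26 (SE 1.21, adjusted p = 0.0187) with no overlap. Its adjusted p was 0.0515 without WT replicate 3 and 0.0629, 0.0699 and 0.0638 without mutant replicates 1, 2 and 4. Gadd45a, a stress gene that slows the cell cycle, fell by 1.60 on the log2 scale (adjusted p = 0.0084, and 0.0670 without WT replicate 3). Foxo3 itself and Trib1, a pseudokinase, were called higher at 0.69 and 1.09, but both calls were lost in all 7 fits that left out a sample, with adjusted p of 0.0506 to 0.164 and 0.0674 to 0.246.

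Among 17 ErbB receptors and ligands 1 rose and 1 fell (11.8%, against 4.52% of all genes), and both were neuregulins, ligands of the HER3 and HER4 receptors. Nrg1 held 10.7, 31.5 and 9.81 CPM in WT and 68.8, 51.4, 71.2 and 51.1 CPM in mutant organoids, a change of 1.81 (SE 0.36, adjusted p = 0.00741); WT replicate 2 was nearest to the mutants, and without WT replicate 3 the adjusted p was 0.0564. Nrg4 went down, from 16, 10.3 and 14.9 to 3.55, 3.37, 3.76 and 4.001 CPM, a change of -1.90 (SE 0.27, adjusted p = 0.00123); it overlaps Fbxo22. Erbb3, the HER3 receptor, held 247 to 317 CPM in WT and 302 to 326 CPM in the mutants (adjusted p = 0.677).

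Cyclin D genes rose, in the axis that the title of the study names. D-type cyclins bind CDK4 and CDK6 to release cells into S phase, and p21 (Cdkn1a) inhibits cyclin-dependent kinases. Of 20 genes in this axis of cyclins and their inhibitors, 2 rose and none fell (10.0%, against 4.52% of all genes). When the 7 samples were fitted alone, 7 were higher and 1 lower, where 7.91% and 9.05% of all genes were. Ccnd3, cyclin D3, held 34.5, 35.9 and 34.1 CPM in WT and 57.2, 61.5, 71.2 and 67.8 CPM in the mutants, and its narrow spread within each genotype gave a change of 0.89 (SE 0.15, adjusted p = 0.00254); the gene overlaps Bysl. Ccnd1, cyclin D1, held 70.7, 119.6 and 55.5 CPM in WT and 344, 286, 176 and 265 CPM in the mutants, with mutant replicate 3 nearest to WT, a change of 1.71 (SE 0.41, adjusted p = 0.0256); it overlaps LTO1. The Ccnd1 call was lost without WT replicates 1 (adjusted p = 0.118) and 3 (0.164) and without mutant replicates 1, 2 and 4 (0.0736, 0.0579 and 0.0511). Cdkn1a held 17.8, 51.4 and 25.6 CPM in WT and 73.7, 85.1, 65.7 and 157 CPM in the mutants; all mutant samples lay above WT, but 1.59 (SE 0.55, adjusted p = 0.125) did not pass. Cdk4, Cdk6, Cdkn1b (p27) and Rb1 did not pass either, at 0.17, 0.76, 0.40 and -0.67.

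Mitotic genes had a median log2 fold change of 1.04, with 37 of 40 positive. Of the 40, 4 were called higher and none lower (10%, against 4.52% of all genes). The 38 DNA replication genes had a median of 0.03 and no edgeR call in either direction, none at an unadjusted p under 0.05 (0 of 38), and none in DESeq2 or in the 7 samples alone. The groups of Mki67, the proliferation marker Ki-67, overlapped, at 10.6, 32.8 and 53 CPM in WT and 108, 80.4, 43.6 and 55.3 CPM in the mutants (adjusted p = 0.448). Among the 4 called, Cenpa, the histone variant of the centromere, held 2.94, 4.66 and 5.37 CPM in WT and 10.6, 12.6, 10.7 and 13 CPM in the mutants, a change of 1.44 (SE 0.23, adjusted p = 0.00187). Cdc25c, Bub1b and Cdc20, a phosphatase that starts mitosis, a spindle checkpoint kinase and an activator of the anaphase-promoting complex, were called at 1.71, 1.403 and 1.28; each call was lost in 6 of the 7 fits, with adjusted p of up to 0.161, 0.190 and 0.187, and the list held 1 call without WT replicate 1, 2 or 3. Cenpa was the member called in all 7 fits.

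Glycolysis and the response to low oxygen share many genes, because the factor HIF, which low oxygen and active mTOR raise, switches on most enzymes of glycolysis through short DNA words such as ACGTG. Promoters of the called genes were searched for the form ACGTG on both strands, in the 250 bases before each RefSeq start (GRCm38.p6). Other forms of the HIF word were not searched, so a start without a match may hold one of them. Of 7 starts of 5 called genes, 2 held a match, those of Pgk1 and of the first Ldha start, against 16.6% of all 32851 promoters of that length; both are shown, with the matched letters in capitals. The Pgk1 window (chrX:106186850-106187099, plus strand) held 2 matches, 150 bases before the start on the plus strand and 131 before it on the minus strand. The Ldha window (chr7:46845554-46845803, plus strand) held 5, and 2 pairs of them lie within an E-box, CACGTG, which reads alike on both strands and is in 6.02% of promoters.
Pgk1: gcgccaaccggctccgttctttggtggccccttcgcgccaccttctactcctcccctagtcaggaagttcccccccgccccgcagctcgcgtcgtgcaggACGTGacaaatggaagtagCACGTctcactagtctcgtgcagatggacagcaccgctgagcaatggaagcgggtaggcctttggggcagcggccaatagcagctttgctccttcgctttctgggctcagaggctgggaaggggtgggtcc
Ldha: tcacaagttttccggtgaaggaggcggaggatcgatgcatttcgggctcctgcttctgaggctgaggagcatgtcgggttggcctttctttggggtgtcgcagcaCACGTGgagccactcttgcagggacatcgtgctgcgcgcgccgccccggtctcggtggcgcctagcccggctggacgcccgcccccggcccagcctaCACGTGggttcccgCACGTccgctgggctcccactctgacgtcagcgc
A match is a description of these letters and not a site of binding.

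At the RNA level, 4 of 22 glycolysis genes rose and 1 fell (22.7%, against 4.52% of all genes), with a median log2 fold change of 0.99. In 13 of them all mutants lay above WT, against 13.8% of all genes. Pgk1, phosphoglycerate kinase, held 78.5, 259 and 92.5 CPM in WT and 615, 681, 524 and 929.5 CPM in the mutants, a change of 2.26 (SE 0.60, adjusted p = 0.0412). Ldha, which makes lactate from pyruvate, held 226, 321 and 236 CPM in WT and 778, 659, 591 and 756 CPM in the mutants, a change of 1.41 (SE 0.32, adjusted p = 0.0158), and Tpi1, triosephosphate isomerase, which overlaps Spsb2, changed by 1.55 (SE 0.34, adjusted p = 0.0148). Pfkl, the liver form of phosphofructokinase, changed by 0.99 (SE 0.23, adjusted p = 0.0207). In each of these genes WT replicate 2 was the WT sample nearest to the mutants. Pfkfb4, which makes a sugar phosphate that activates phosphofructokinase, fell by 1.52 on the log2 scale, from 8.65, 6.9 and 11.2 to 3.42, 2.97, 3.9 and 2.13 CPM (adjusted p = 0.0138, but 0.0980 without WT replicate 3 and 0.0518 without mutant replicate 2). Gapdh (adjusted p = 0.086), Hk2 (0.0616) and the glucose transporter Slc2a1 (0.671) did not pass, at log2 fold changes of 1.63, 1.23 and 0.47.

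All 20 hypoxia response genes had a positive fold change and the median was 1.13. In 15 of them all mutants lay above WT, against 13.8% of all genes. Only 1 was called (5%, against 4.52% of all genes): Pdk1, which slows pyruvate entry into mitochondria, at 34.3, 91.5 and 41 CPM in WT and 141, 158, 128 and 172 CPM in the mutants (log2 fold change 1.43, SE 0.32, adjusted p = 0.0155). Vegfa, the vascular growth factor, held 144, 324 and 151 CPM in WT and 556, 722, 681 and 1075 CPM in the mutants (adjusted p = 0.195). In the fit of all 16 samples these calls depended on single WT samples. Without WT replicate 1 or 3 no glycolysis gene was called higher; the adjusted p of Pgk1, Ldha, Tpi1, Pfkl and Pdk1 was 0.183, 0.0856, 0.0876, 0.122 and 0.0862 without replicate 1 and 0.222, 0.102, 0.105, 0.132 and 0.116 without replicate 3. Pgk1 was lost without any one mutant sample as well (0.0580 to 0.0972), and Pfkl without mutant replicate 3 (0.0545). Without WT replicate 2, 4 glycolysis genes and 3 hypoxia genes were called higher. In the 7 samples alone 13 and 15 were called higher, where 7.91% of all genes were. With 1 sample left out of those 7, Pgk1, Ldha and Tpi1 were called in all 7 fits and Pdk1 in 6.

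Genes of fatty acid uptake and burning were lower in the mutant organoids: 6 of 27 fell and none rose (22.2%, against 4.52% of all genes), with a median log2 fold change of -0.43. These 6 are known targets of the PPAR nuclear receptors, which fatty acids activate. Cpt1a, the mitochondrial gate for fatty acid oxidation, held 103, 183 and 177 CPM in WT and 31.1, 32.1, 33.8 and 27.5 CPM in the mutants, a change of -2.31 (SE 0.31, adjusted p = 0.00104). Angptl4, a secreted inhibitor of lipoprotein lipase, held 99.4, 262 and 237 CPM in WT and 16.6, 17.2, 8.19 and 17 CPM in the mutants, a change of -3.76 (SE 0.40, adjusted p = 0.000283). Cd36, a fatty acid transporter, held 19.5, 9.89 and 29.9 CPM in WT and 0.111, 0, 0.177 and 0 CPM in the mutants, a change of -8.07 (SE 0.88, adjusted p = 0.000315), and mutant replicates 2 and 4 had no read of it. The groups were far apart for all 3 genes. Fabp4, a fatty acid carrier of fat cells and macrophages, fell from 2.52 to 13.1 to 0 to 0.179 CPM, and Plin2, which coats lipid droplets, from 1341, 1072 and 1731 to 422, 449, 365 and 410.0 CPM (log2 fold change -1.75, SE 0.29, adjusted p = 0.00237). The sixth gene was Pdk4, described with the FOXO targets; 5 of the 6 were called without WT replicate 3.

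Macrophages also carry Cd36, Fabp4 and Plin2. In HER2 mutant replicates 3 and 4, where the macrophage lysozyme Lyz2 was at 0.200 and 0.123 CPM, Cd36 stood at 13.0 and 30.2 CPM. Lyz2 held 1109, 405 and 2649 CPM in WT and 1.89, 0.0413, 7.84 and 1.59 CPM in PIK3CA mutant organoids. For Cpt1a and Angptl4, HER2 mutant samples held 21.5 to 32.9 and 7.21 to 20.5 CPM and double mutants 14.7 to 42.3 and 5.64 to 11.4 CPM, so WT stood apart from all 3 tumor-derived genotypes. The part of the macrophage RNA in the lower fatty acid genes was not tested. For the 4 of these genes with a RefSeq start in the table (Pdk4, Cd36, Cpt1a and Plin2), the 250 bases before it held no GTAAACA, the forkhead motif, on either strand; 3.17% of all promoters held it.

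Lipid synthesis genes were also examined. Of 23 fatty acid synthesis genes 3 rose and none fell (median 0.43), and of 24 cholesterol genes 2 rose and none fell (median 0.50). Calls made up 13.0% and 8.33% of these lists, against 4.52% of all genes. In 13 cholesterol genes all mutants lay above WT, against 13.8% of all genes. Me1, malic enzyme, which supplies NADPH, held 144, 262 and 151 CPM in WT and 439.7, 424, 532 and 500.2 CPM in the mutants (log2 fold change 1.35, SE 0.26, adjusted p = 0.0062); the adjusted p was 0.0571 without WT replicate 3. Fads1, a desaturase, and Lpin1, a phosphatidate phosphatase, were called at 1.35 and 1.03, and each call was lost in at least 5 of the 7 fits, with adjusted p of up to 0.215 and 0.0922. Fasn and Scd1 (adjusted p = 0.544 and 0.61) were not called, and the groups of Scd1 overlapped. Without WT replicate 3 no gene of either list was called. In the 7 samples alone 9 fatty acid synthesis genes were higher and 2 lower, and 11 cholesterol genes were higher and 0 lower. Of all genes, 7.91% were higher and 9.05% lower there.

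**Figure D3:**
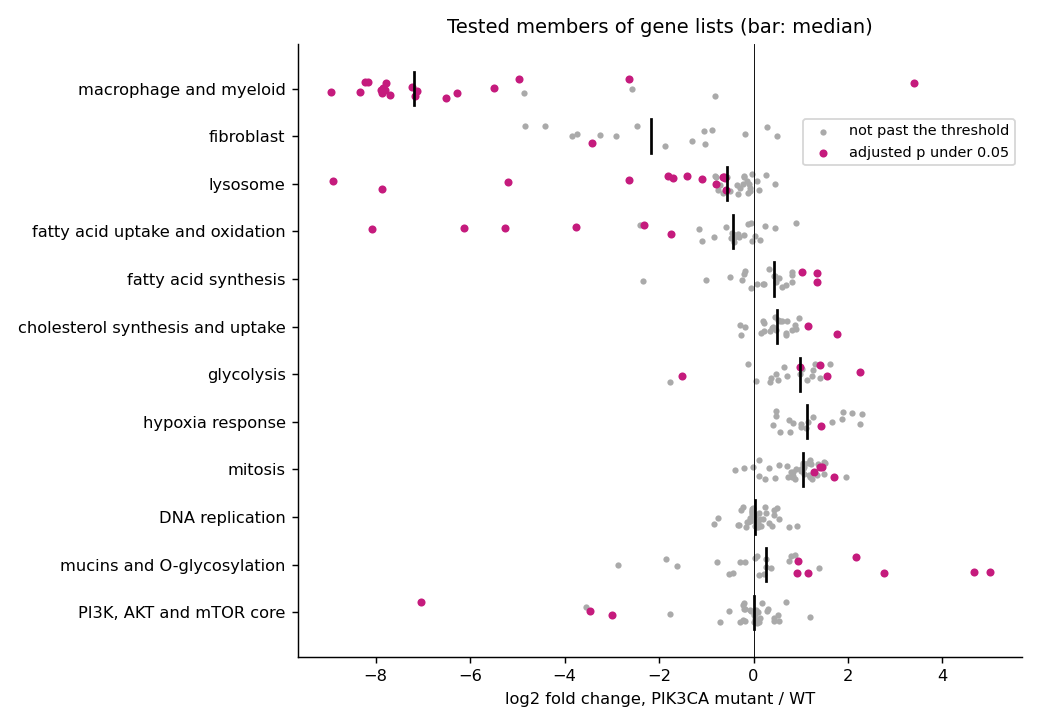
Log2 fold change of PIK3CA mutant over WT organoids (x axis) for every tested member of 12 gene lists (rows); coloured points passed an adjusted p of 0.05 and the bar is the list's median. Macrophage markers lie furthest to the left (median -7.20), and glycolysis, hypoxia and mitosis genes lie mostly right of 0 (medians 0.99, 1.13 and 1.04) with few coloured points.

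Higher genes with the lowest p or the largest changes included the following 5. Alpl, tissue-nonspecific alkaline phosphatase, held 52.9, 67.7 and 47.2 CPM in WT and 442, 349, 452 and 374 CPM in the mutants, a change of 2.85 (SE 0.26, adjusted p = 0.000122). Fcgbp, a mucus protein that binds IgG, held 149, 249 and 116 CPM in WT and 4330.1, 1335, 6511 and 2765 CPM in the mutants, a change of 4.45 (SE 0.76, adjusted p = 0.00295); the mutants spread widely but none came near WT. Rbp7, a carrier of retinol inside the cell, held 0.489, 1.48 and 0.267 CPM in WT and 11.9, 13.3, 11.4 and 8.64 CPM in the mutants (log2 fold change 3.93, SE 0.55, adjusted p = 0.0011). It was among the 3 higher genes of 22 retinoid genes tested, of which 1 fell (18.2% called, against 4.52% of all genes). Pi15, a secreted protease inhibitor, held 1.15, 5.2 and 6.42 CPM in WT and 49.2, 63, 42.9 and 37.6 CPM in the mutants (log2 fold change 3.50, SE 0.63, adjusted p = 0.00419), and St8sia6, a sialyltransferase, 6.26, 5.56 and 2.84 and 97, 69.3, 69.6 and 53 CPM (log2 fold change 3.89, SE 0.50, adjusted p = 0.000824).

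Mucins and enzymes of glycosylation and sialic acid, not all specific to mucins, numbered 7 higher and none lower of 26 tested (26.9%, against 4.52% of all genes). The list median was 0.26. Muc15, Muc20 and Muc4 are membrane mucins, and the last 2 overlap each other, so their reads cannot be separated without strand. Muc20 held 5.96, 22.8 and 7.32 CPM in WT and 118, 69.7, 76.5 and 62.1 CPM in the mutants (log2 fold change 2.76, SE 0.59, adjusted p = 0.0121); the adjusted p was 0.0673 and 0.0911 without WT replicates 1 and 3. Galnt7, which adds O-linked sugars to proteins, held 26.4, 30.6 and 26.2 CPM in WT and 63.2, 51.6, 70.4 and 61.8 CPM in the mutants (log2 fold change 1.15, SE 0.19, adjusted p = 0.00254) and was the list member called in all 7 fits. Muc15 (2.17), Muc4 (4.67), Galnt3 (0.92), St6gal1 (0.94) and Cmah (4.996) lost their calls without WT replicates 1 and 3, with adjusted p of 0.108, 0.122, 0.0818, 0.128 and 0.139 for the former and 0.151, 0.132, 0.126, 0.159 and 0.111 for the latter. Muc15 was also lost without WT replicate 2 (0.0600) and mutant replicate 1 (0.0774), Muc4 without mutant replicate 1 (0.0550), Galnt3 without mutant replicate 3 (0.0514), St6gal1 without mutant replicates 1 and 3 (0.0561 and 0.0584), and Cmah without WT replicate 2 (0.0896) and mutant replicate 2 (0.0819). Muc1, the best known membrane mucin of breast, held 735, 321 and 511 CPM in WT and 197, 127, 117 and 135 CPM in the mutants; the mutants lay below WT, and the change of -1.86 did not pass (adjusted p = 0.106).

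**Figure D4:**
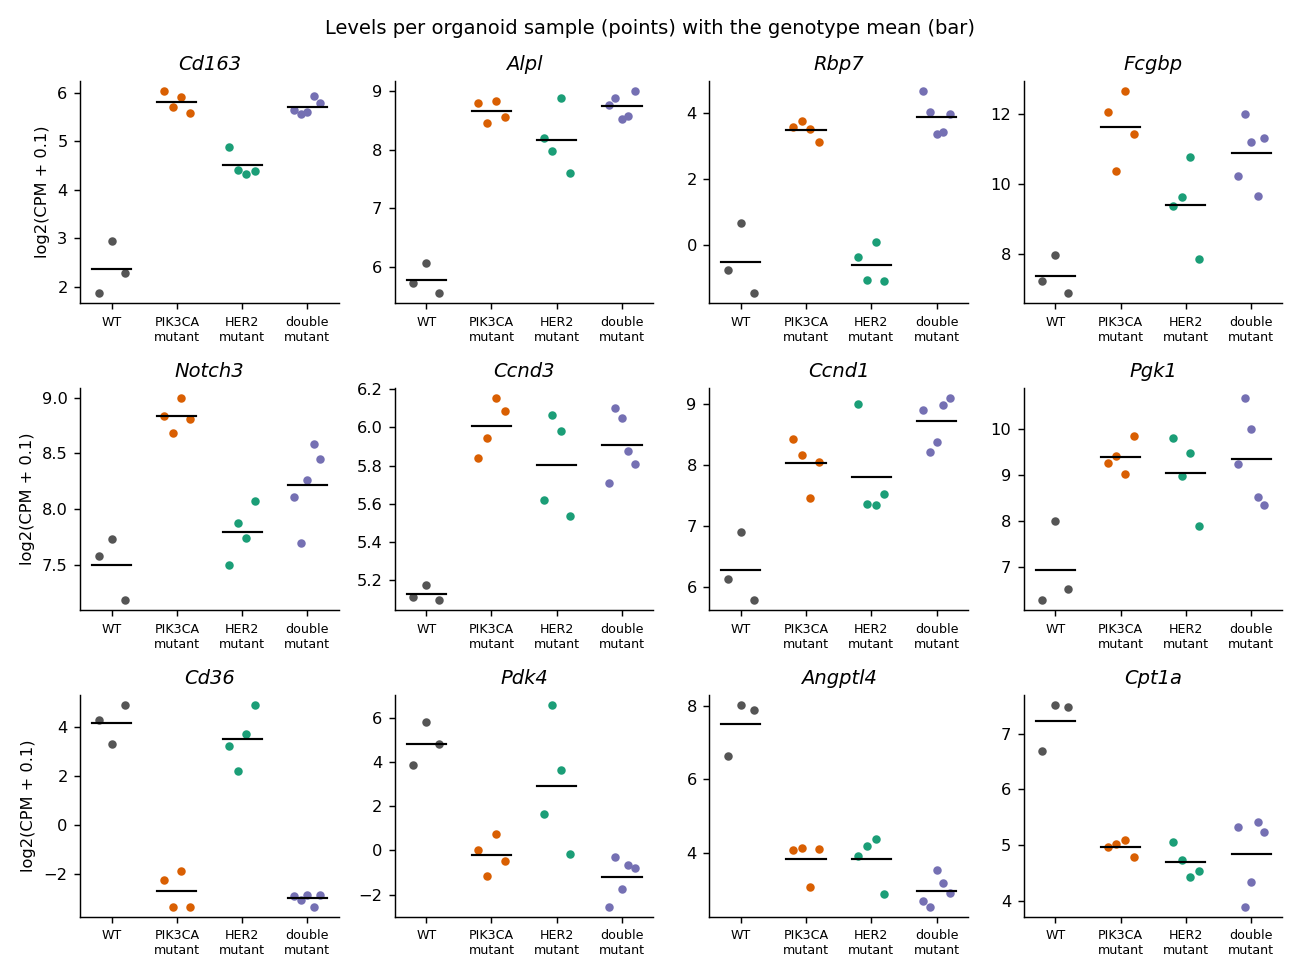
Levels of 12 genes in each organoid sample, as log2(CPM + 0.1) on the y axis, with 1 point per sample, a bar for the genotype mean, and the 4 genotypes along the x axis. Cd163 and Rbp7 are higher and Cd36 is lower in both genotypes with the PIK3CA mutation than in WT and HER2 mutant organoids, while Angptl4 and Cpt1a are low in all 3 mutant genotypes.

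Among signalling receptors, Notch3 rose. It held 191, 213 and 145 CPM in WT and 457, 412, 512 and 449 CPM in the mutants, a change of 1.32 (SE 0.20, adjusted p = 0.00157) (GRCm38 chr17:32120820-32166852 (-)). With Maml3, a coactivator of Notch, it made 2 higher and 0 lower of 21 Notch pathway genes (9.52%, against 4.52% of all genes). Maml3 was called at 0.81 and lost in 6 of the 7 fits, with an adjusted p of up to 0.253. The Notch targets Hes1 and Hey1 did not pass, at 0.66 and 0.85 (adjusted p = 0.0933 and 0.241). Egr1, an immediate early transcription factor downstream of ERK, held 549.8, 869 and 546 CPM in WT and 1625, 1861, 2662 and 2447 CPM in the mutants (log2 fold change 1.71, SE 0.34, adjusted p = 0.00705, and an adjusted p of 0.0612 without WT replicate 3). It was the 1 called of 28 ERK feedback and immediate early genes (3.57%, against 4.52% of all genes). Of 25 p53 targets, 1 rose (4%, against 4.52% of all genes): Trp53inp1, a stress-induced p53 partner (log2 fold change 1.09, SE 0.22, adjusted p = 0.00932, and 0.0746 without WT replicate 3). Arrb1, beta-arrestin 1, and Arhgef19, an activator of RHOA, changed by 1.26 (SE 0.16, adjusted p = 0.000824) and 1.22 (SE 0.15, adjusted p = 0.000738).

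The Wnt list held 1 higher and 1 lower gene of 38 (5.26%, against 4.52% of all genes), Ccnd1 and the ligand Wnt5b. Wnt5b held 71.4, 51.4 and 58.8 CPM in WT and 29.8, 29.9, 37.5 and 25.3 CPM in the mutants (log2 fold change -0.98, SE 0.25, adjusted p = 0.0349), and its call was lost in 5 of the 7 fits, with an adjusted p of up to 0.162. The TGF-beta and BMP list held 2 higher and 2 lower of 39 (10.3%, against 4.52% of all genes). Its higher genes, the ligands Tgfb2 (1.42) and Bmp2 (2.19), lost their calls in all 7 fits, with adjusted p of 0.0518 to 0.221 and 0.0729 to 0.181. Smad9, a BMP signal transducer, held 3.43, 1.66 and 1.68 CPM in WT and 0.143, 0.145, 0.177 and 0.214 CPM in the mutants (log2 fold change -3.72, SE 0.78, adjusted p = 0.0111; 0.0545 without WT replicate 1), and Chrd, the BMP antagonist chordin, was called at -2.44 and lost in 6 of the 7 fits, with an adjusted p of up to 0.198.

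Among secreted immune factors and matrix proteases more genes fell than rose, beside the fall in macrophage markers (summed 1167 to 5492 CPM in WT and 240 to 341 CPM in the mutants). Of 36 chemokines and cytokines 9 fell and 1 rose, of 20 complement genes 6 fell and 1 rose, and of 30 matrix proteases and inhibitors 7 fell and none rose. Calls made up 27.8%, 35% and 23.3% of these lists, against 4.52% of all genes. Ccl6 and Ccl8, chemokines of myeloid cells, fell from 164 to 328 to 0.0826 to 4.87 CPM and from 7.004 to 18.7 to 0 to 0.107 CPM. Mmp11, stromelysin 3, a protease of stromal fibroblasts, held 16.5, 51.9 and 51.6 CPM in WT and 5.36, 6.82, 9.57 and 7.2 CPM in the mutants (log2 fold change -2.47, SE 0.43, adjusted p = 0.00305). The factors that rose were Lif, an IL-6 family cytokine (log2 fold change 1.44, SE 0.32, adjusted p = 0.0154; 0.0563 and 0.110 without WT replicates 2 and 3), and C3, the central complement protein (1.11, lost in 5 of the 7 fits with an adjusted p of up to 0.253). Without WT replicate 3, 5 chemokine genes, 5 complement genes and 2 matrix protease genes were called lower. The part of macrophage RNA in these changes was not tested.

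Lysosomal genes fell in 13 of 36 and rose in none (36.1%, against 4.52% of all genes), with a median log2 fold change of -0.57. The list includes Cd68, Ctss and Ctsk, a surface marker and proteases of macrophages and osteoclasts, but also enzymes of all cells. Gusb, beta-glucuronidase, held 43.9, 29.3 and 67.4 CPM in WT and 15.2, 13.3, 12.7 and 12.5 CPM in the mutants (log2 fold change -1.80, SE 0.30, adjusted p = 0.00231), and Man2b1, an alpha-mannosidase, 90.3, 65.2 and 163 and 41.6, 39.1, 40.2 and 39.4 CPM (log2 fold change -1.41, SE 0.24, adjusted p = 0.00254). Both genes were highest in WT replicate 3, where the macrophage sum was also highest, and all mutants lay below all WT samples. The part of macrophage RNA in the lower lysosomal genes was not tested. Hexa, a beta-hexosaminidase subunit, changed by -1.71 (SE 0.33, adjusted p = 0.0059), with an adjusted p of 0.0507 without WT replicate 3. The count of lower lysosomal genes was 6, 15 and 5 without WT replicates 1, 2 and 3.

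Genes of cell contact and of transport across the epithelium changed in smaller numbers. Of 25 claudin, tight junction and gap junction genes 3 rose and none fell (12%, against 4.52% of all genes). Cldn1, claudin 1, held 7.11, 10.1 and 3.67 CPM in WT and 70.3, 42.7, 32.6 and 46.5 CPM in the mutants (log2 fold change 2.78, SE 0.60, adjusted p = 0.0133; 0.0593 and 0.0956 without WT replicates 1 and 3). Gjb1, connexin 32, had 3 reads in WT replicate 2 and none in the other WT samples, against 1.19, 1.61, 0.686 and 1.29 CPM in the mutants (adjusted p = 0.00194). Of 21 sodium channel, aquaporin and ion transport genes 3 rose (14.3%, against 4.52% of all genes), and none of these calls held without WT replicate 1 or 3. Ano1, a calcium-activated chloride channel, held 407, 601 and 451 CPM in WT and 1485, 1079, 1494 and 1052 CPM in the mutants (log2 fold change 1.39, SE 0.28, adjusted p = 0.00845). Its adjusted p was 0.0541 and 0.0649 without WT replicates 1 and 3 in turn. Sparcl1, a secreted matrix protein, rose from 10.02, 7.7 and 19.4 to 169.9, 76.3, 158 and 113 CPM (log2 fold change 3.38, SE 0.60, adjusted p = 0.00353), and Comp, a cartilage matrix protein, fell from 15, 68.3 and 31.5 to 0.461, 0.475, 2.37 and 1.000 CPM (log2 fold change -5.16, SE 0.74, adjusted p = 0.00123). Gpx3, the secreted glutathione peroxidase, fell from 67.1, 60.9 and 82.2 to 7.95, 9.69, 15.4 and 21.6 CPM (log2 fold change -2.36, SE 0.37, adjusted p = 0.00173). Krt4, a keratin of stratified epithelium, fell from 8.43, 5.4 and 8.29 to 0.207, 0.413, 0.266 and 0.5001 CPM (log2 fold change -4.40, SE 0.75, adjusted p = 0.0029).

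Other gene groups showed few or no calls. None of 81 cytosolic ribosomal protein genes was called, although 76 had a positive fold change and the median was 0.34. In 46 of them all mutants lay above WT, against 13.8% of all genes. In the 7 samples alone 36 of them were higher, against 7.91% of all genes. None of 77 nuclear respiratory chain genes was called (median -0.07), nor any of the 13 protein-coding genes of the mitochondrial genome (median -0.46). Of those 13, 0 had a positive fold change, and in 9 all mutants lay below WT, against 15.7% of all genes. In the 7 samples alone 6 of the 13 were lower, against 9.05% of all genes. DESeq2 called no gene of these 3 lists either, and at an unadjusted edgeR p under 0.05 the numbers higher and lower were 17 and 0 for the ribosomal list, 3 and 4 for the respiratory chain and 0 and 1 for the mitochondrial genome.

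The double and HER2 mutant organoids give another comparison with and without the PIK3CA mutation, in which all samples come from tumors and none is shared with the comparison above. There, 249 genes (1.03%) were higher and 357 (1.47%) lower in double than in HER2 mutants, 2.5% in all; higher genes made up 41.1% of these calls, or 30.2% with upper-quartile scaling. The 9 samples fitted alone gave 34 calls, and leaving out single samples gave 257, 265 and 294 calls without double mutant replicates 4, 5 and 1 and 985 without HER2 mutant replicate 3. Of the 362 genes higher in PIK3CA mutant than WT organoids, 23 were also higher in double than HER2 mutants, which is 6.354% of the former and 9.24% of the latter list, and 10 were lower. Of the 734 lower genes, 71 were also lower, 9.673% of the former and 19.9% of the latter, and 2 were higher. The sign was the same for 232 (64.09%) of the higher and 588 (80.11%) of the lower genes. Of the 71 genes lower in both, 14 were of the macrophage list of 22 markers. That list is short, and others of the 71, such as Clec7a, Tlr7, Siglec1, Cybb and Mpeg1, are also known from myeloid cells. The full number of such genes was not counted. HER2 mutant replicates 1 and 2 held macrophage RNA, with Lyz2 at 142 and 58.2 CPM against at most 0.337 CPM in the double mutants. Of the 23 and 71 genes, 4 and 5 were also called when the 9 samples were fitted alone, and 5 and 10 were called in every fit of either comparison that left out a sample.

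The 5 higher genes called in every such fit were Rbp7, Cd163, Pi15, Bdh1 and Cbr2. When the 9 samples were fitted alone, Rbp7, Cd163 and Cbr2 were called, and Pi15 and Bdh1 were not. Rbp7 held 0.679, 0.385, 0.979 and 0.368 CPM in HER2 mutant replicates 1 to 4 and 25.2, 16.3, 10.2, 10.5 and 15.7 CPM in double mutant replicates 1 to 5, a change of 4.69 (SE 0.50, adjusted p = 0.000558). Every sample with the PIK3CA mutation therefore lay above every sample without it. Cd163 held 29.5, 21, 20.01 and 20.7 CPM in HER2 mutants and 49.6, 46.9, 48.5, 61.1 and 54.7 CPM in double mutants (log2 fold change 1.19, SE 0.19, adjusted p = 0.00647), again with no overlap, although the HER2 mutants lay above WT. Pi15 held 14.4, 3.97, 2.58 and 7.76 and 34.5, 38.1, 43.5, 78.1 and 84.5 CPM (log2 fold change 2.96, SE 0.53, adjusted p = 0.0104). Bdh1, which interconverts ketone bodies, changed by 2.05 (SE 0.31, adjusted p = 0.00147) against WT and by 1.47 (SE 0.26, adjusted p = 0.00979) between HER2 and double mutants, and Cbr2, a carbonyl reductase, by 2.17 (SE 0.38, adjusted p = 0.00315) and 1.91 (SE 0.33, adjusted p = 0.00758).

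Among the 10 lower genes called in every fit was Cd36, at 9.34, 4.59, 13 and 30.2 CPM in HER2 mutants and 0.0355, 0.021, 0.0393, 0 and 0.0389 CPM in double mutants (log2 fold change -8.93, SE 0.85, adjusted p = 0.000421), so that the 9 samples with the PIK3CA mutation held at most 0.177 CPM and the 7 without it at least 4.59 CPM. Odc1, ornithine decarboxylase, the first enzyme of polyamine synthesis, changed by -1.01 (SE 0.16, adjusted p = 0.00161) against WT and by -1.004 (SE 0.14, adjusted p = 0.00238) between HER2 and double mutants. When the 9 samples were fitted alone, Cd36 was called and Odc1 was not. Pdk4 was also lower in both, at 3.02, 97.2, 12.5 and 0.798 CPM in HER2 mutants and 0.0709, 0.713, 0.196, 0.536 and 0.467 CPM in double mutants (log2 fold change -6.16, SE 1.13, adjusted p = 0.0109), with HER2 mutant replicate 2 far above its group; in the 9 samples alone the adjusted p was 0.0877. Nrg1 rose in both, and the call in double mutants, 1.24 (SE 0.31, adjusted p = 0.0458), was kept in 2 of 9 fits that left out a sample. Glycolysis genes had no edgeR call in double against HER2 mutants (4 higher and 2 lower at an unadjusted p under 0.05), and the mucin list had 2 lower and none higher.

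**Figure D5:**
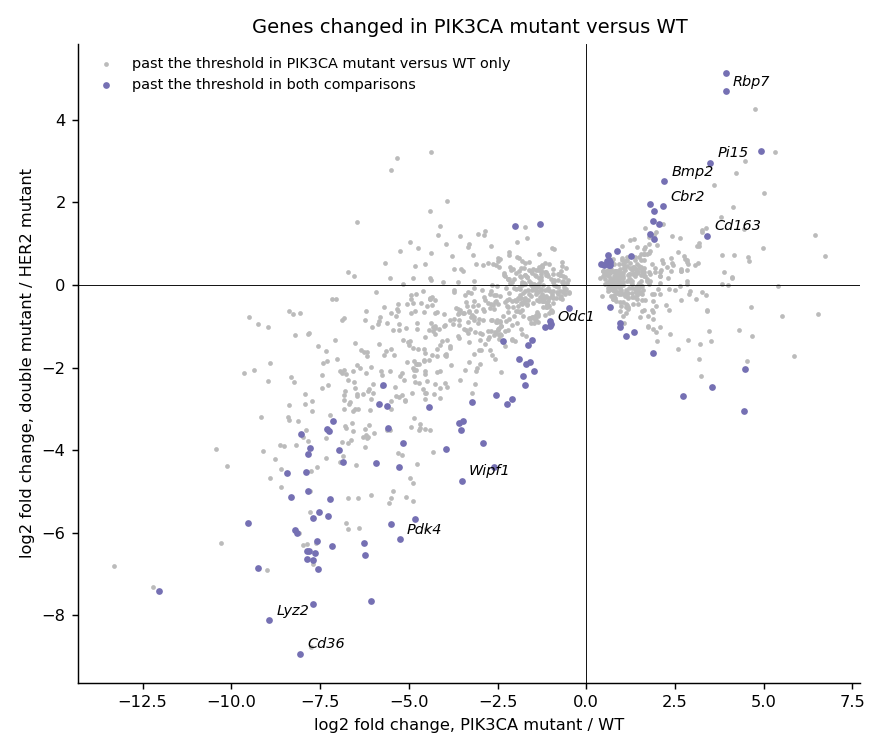
Each point is 1 of the 1096 genes called in PIK3CA mutant versus WT organoids, with that log2 fold change on the x axis and the log2 fold change of double over HER2 mutant organoids on the y axis; purple points were called in both. The comparisons share no sample, and 94 genes were called in the same direction in both, 23 higher and 71 lower.

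The difference between these PIK3CA changes was tested as an interaction, the change of double over HER2 mutants minus that of PIK3CA mutants over WT on the log2 scale, which called 257 genes (1.06%). It contains the PIK3CA mutant over WT change by which the genes above were called, so its values for them are not independent of that call. The count fell to 53 and 116 without WT replicates 3 and 1, to 103 to 129 without any one PIK3CA mutant sample, and to 140 and 145 without double mutant replicates 4 and 5. Alpl was one of them: HER2 mutants held 294, 251, 468 and 193 CPM and double mutants 434, 471, 366, 379 and 508 CPM, a change of 0.52 (SE 0.21, adjusted p = 0.203) there and an interaction of -2.33 (SE 0.32, adjusted p = 0.00521). Angptl4 and Cpt1a had interactions of 2.81 (SE 0.51, adjusted p = 0.0158) and 2.56 (SE 0.41, adjusted p = 0.0098). The interaction of Rbp7 was 0.76 (SE 0.64, adjusted p = 0.666) and that of Cd36 -0.86 (SE 1.21, adjusted p = 0.819), neither of them called.

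A direct comparison of PIK3CA with HER2 mutant organoids, both from tumors, called 533 genes (2.2%) higher and 536 (2.21%) lower in PIK3CA mutants, 4.41% in all; it uses the same PIK3CA mutant samples as the comparison with WT, so values are only set side by side. Without any one PIK3CA mutant sample the calls numbered 427 to 543. Rbp7 differed by 4.23 (SE 0.49, adjusted p = 0.000529) from HER2 mutants and by 3.93 from WT, Cd163 by 1.30 (SE 0.20, adjusted p = 0.00288) and 3.40, Notch3 by 1.02 (SE 0.18, adjusted p = 0.00715) and 1.32, and Cd36 by -7.61 (SE 0.86, adjusted p = 0.000487) and -8.07. Alpl, Ccnd1, Ccnd3, Pgk1, Angptl4 and Cpt1a were not called between PIK3CA and HER2 mutants, at 0.42, 0.07, 0.19, 0.22, -0.05 and 0.26, although each was called against WT.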

How the data were processed

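RNA was measured by sequencing in 16 organoid samples. Per the labels' protocols it was extracted with a column kit and made into libraries with a SMARTer mRNA-seq kit from total RNA. The submitters' processing notes name bcl2fastq 2.20, STAR 2.0.4b, Subread, featureCounts 1.4.5, DESeq2 1.33.5 and the mouse build mm10, with no settings. Strandedness is not given in the sources used here, so reads of overlapping genes cannot be told apart. The authors deposited raw counts per Ensembl gene, which were used for every main test. A further table the authors deposited holds normalized signal, found to equal the counts divided by a DESeq2 size factor, which was used for 1 alternative. Of 55774 entries, 287 repeated an identifier and were dropped, which left 55487.

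Groups follow the genotype label of each sample. Genes were kept with filterByExpr (24252), libraries were scaled by TMM, and edgeR 4.0.16 in R 4.3.3 (glmQLFit and glmQLFTest, two-sided) was fitted once to all 16 samples with genotype as the factor. The groups compared were PIK3CA mutant and WT, double and HER2 mutant, PIK3CA and HER2 mutant, and the interaction of the first 2. The SE of a log2 fold change is its size divided by the square root of F. CPM were computed with TMM factors. The script was tested on simulated counts. Alternatives were DESeq2 1.42.0, limma 3.58.1 on log2(normalized value + 1), other scalings, no filter, offsets for GC content and length, a replicate block, the compared groups alone, and each sample left out.

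Named genes were, among called genes whose mean level reached a log2 CPM of 1 or more, whose names were not those of predicted genes or clones, and which showed no overlap between genotypes, the 12 largest changes and the 8 lowest p in each direction, and up to 3 members of each gene list per direction. Where a list had no called gene, up to 2 members of the highest level were eligible. Pik3ca and Erbb2 were always included. Further genes were picked with their values in view. Some genes that met these rules are not reported here, but list counts, sums and medians include them. The comparison and the gene lists were chosen with earlier results of these data known. Positions are those of GENCODE M21 (GRCm38), which held 55141 of the identifiers, and promoters are from RefSeq (GRCm38.p6). The 95% point of Dixon's test was used to look for single samples far from their group.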

Additional observations from a re-analysis of the deposited data

Results flagged for a closer look

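Single PIK3CA mutant samples stood apart from the other 3 of their group by Dixon's test in 14 of the 146 named genes examined. Chance gives about 1 in 20 where values follow a normal distribution, and CPM were tested here without a log scale. The test weighs a gap against the range of the 4 samples, so a small gap can meet it. Replicate 1 stood apart in Pak6 (51.5 CPM) and Lif (81.4 CPM, against a median of 89.6 CPM in the other 3). Replicate 2 stood apart in Cmah (21.9 CPM). Replicate 3 stood apart in Plekhs1 (45.5 CPM), Pglyrp1 (16.8 CPM), Mpeg1 (2.39 CPM), F13a1 (1.9 CPM), Angptl4 (8.19 CPM), Ccl12 (0.221 CPM), C5ar1 (0.133 CPM) and Col16a1 (207 CPM, against a median of 225 CPM in the other 3). Replicate 4 stood apart in Pdgfrb (13.5 CPM), Dsg1a (0.0536 CPM) and Bcl2a1b (0.0179 CPM). In Ccl12, Dsg1a and Bcl2a1b the other 3 samples had no read, so any read meets the test, and the values of the last 2 are at or under 3 counts. Among the flagged genes, F13a1, Ccl12, Dsg1a and Col16a1 kept their call against WT in 2, 2, 1 and 5 of the 7 fits that left out a sample.

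The interaction test in edgeR (adjusted p under 0.05) called 36 of the named genes reported here. Genes were named largely for their change from WT, which the interaction subtracts. Their count and signs are therefore not independent of that choice. Over all tested genes the interaction called 257 (1.06%), which fell to 53 without WT replicate 3 and to 35 with the replicate block. The values are the log2 change of double over HER2 mutant organoids minus that of PIK3CA mutant over WT organoids. They were negative for Muc4 (-5.9), Tnfrsf19 (-6.35), Plekhs1 (-5.38), St8sia6 (-3.56), Pglyrp1 (-4.88), Cd163 (-2.21), Aire (-4.03), Alpl (-2.33), Arhgef19 (-1.08), Arrb1 (-1.19), Anxa9 (-2.46), Pak6 (-2.62), Cenpa (-1.57), Gstt1 (-2.23), Lbp (-2.5), Xdh (-1.99), Gjb1 (-7.58), Sparcl1 (-3.62), Lama4 (-1.34), Rarb (-3.35) and Col4a5 (-1.59). They were positive for Comp (5.17), Csf1r (3.6), Syk (4.59), Angptl4 (2.81), Fxyd5 (2.29), Dpp7 (2.15), Rab3il1 (4.26), Cpt1a (2.56), Gper1 (2.35), Myh11 (2.06), Gadd45a (1.96), Nrg4 (1.84), Krt4 (6.19), Aspn (4.1) and Pcdhgc3 (1.55). The call against WT was kept in 1 of the 7 fits that left out a sample for Lbp and Rarb, and in 2 for Col4a5. It was kept in 4 for Lama4 and Xdh, 5 for Aire, and 6 for Gstt1 and Aspn. The WT samples alone come from normal tissue, and its part in these differences cannot be told apart from that of the HER2 mutation.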

How the results depend on the processing

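The count of genes differing between PIK3CA mutant and WT organoids (1096) kept its size under scaling by DESeq2's size factors (1096) or by upper quartiles (1075), no filter (1114), an offset for GC content and length (1150) and limma (1162). It was 1869 in DESeq2 and 4114 in the 7 samples alone, 2393 there with a replicate block; it was 407 to 1029 with 1 sample left out of the 16 and 2579, 4733 and 2001 without WT replicates 1 to 3 and 3038, 2579, 3444 and 2943 without mutant replicates 1 to 4 of the 7. Samples with the same replicate number had correlated deviations of 0.039 to 0.0455 (mean 0.0425) for PIK3CA mutant and WT, -0.118 to 0.0925 for PIK3CA and HER2 mutants and 0.0711 to 0.273 (mean 0.157, against -0.0407 for other pairs) for double and HER2 mutants, so the numbers were not taken to pair samples, although the last do lean that way. The replicate block gave 794 calls, 827 with the GC offset. Of 131 named calls, 131 were kept in the 7 samples alone, 130 in DESeq2, 105 with the replicate block and 61 without WT replicate 3.

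For double against HER2 mutants (606), the count was 118 with the replicate block, 130 with GC offset and block, 34 in the 9 samples alone, 12 there with the block, 1715 in DESeq2 and 257 to 985 with 1 sample left out. For PIK3CA against HER2 mutants (1069), the same settings gave 552 (block), 607 (GC offset and block), 489 (8 samples alone), 66 (with the block), 2219 (DESeq2) and 427 to 1171. For the interaction (257) they gave 35 (block), 54 (GC offset and block), 966 (DESeq2) and 53 to 378. The cause of these shifts was not tested.

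Log2 fold changes of 3 uncalled genes changed sign. With 1 sample left out of the 16 they spanned -0.126 to 0.0914 for Mcm7, -0.217 to 0.212 for mt-Co1 and -0.281 to 0.00875 for Pcdhgb1. That of Mcm7 was 0.0914 and 0.0381 without WT replicate 3 and mutant replicate 3, and 0.0913 and 0.0379 in the 7 samples alone. That of mt-Co1 was 0.0147 and 0.0242 with the replicate block in 16 and 7 samples, 0.212 without WT replicate 1 in either and 0.00106 without mutant replicate 2. That of Pcdhgb1 was 0.00875 and 0.0086 without WT replicate 3. The depth limits levels under 0.0468 to 0.0630 CPM (3 counts).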

Other observations

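The following genes were chosen after their values were seen. Abcg1 and Abca1, pumps that export cholesterol and are targets of the oxysterol receptor LXR, were lower in PIK3CA mutant organoids. Abcg1 held 396, 279 and 606 CPM in WT and 48.9, 70.6, 108 and 78 CPM in the mutants, a change of -2.49 (SE 0.44, adjusted p = 0.00361) that was called in all 7 fits that left out a sample. Abca1 held 1635, 1249.6 and 2221 and 426, 606, 701 and 671 CPM, a change of -1.50 (SE 0.32, adjusted p = 0.0134) called in 5 of the 7 fits. Soat1, which esterifies cholesterol for storage, changed by -2.30 (SE 0.49, adjusted p = 0.0114), called in 6 of the 7 fits. These genes are also active in macrophages, whose markers summed to 1167 to 5492 CPM in WT and 240 to 341 CPM in the mutants, and that part was not tested.

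Ret, the receptor kinase for GDNF ligands, held 0.787, 1.82 and 0.918 CPM in WT and 7.89, 11.7, 8.99 and 13.6 CPM in the mutants, a change of 3.17 (SE 0.60, adjusted p = 0.0057), with no overlap. Slc6a19, a carrier of neutral amino acids, held 0.21, 0.32 and 0.167 and 8.54, 4.73, 4.27 and 5.04 CPM, a change of 4.60 (SE 0.61, adjusted p = 0.001). Igf1, insulin-like growth factor 1, held 28, 18.5 and 76.2 CPM in WT and 2.67, 3.22, 2.06 and 2.05 CPM in the mutants, a change of -4.03 (SE 0.71, adjusted p = 0.00338). Gt(ROSA)26Sor, the noncoding transcript of the Rosa26 locus, which is often used to place transgenes, held 2.36, 2.1 and 2.27 CPM in WT and 1.37, 0.868, 1.06 and 1.02 CPM in the mutants. Its change of -1.05 (SE 0.28, adjusted p = 0.0462) was called in none of the 7 fits that left out a sample, and the gene overlaps Thumpd3. The labels do not say where the mutations were placed.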
